A study of Homo sapiens with 18 samples.

Results

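NF-kB is a family of dimeric transcription factors built from the subunits encoded by NFKB1, NFKB2, REL, RELA and RELB. Inhibitor proteins such as NFKBIA and NFKBIE hold the dimers in the cytoplasm until an IKK kinase marks them for degradation, and the freed dimers then switch on genes that include several of their own inhibitors and subunits. In B cells the pathway relays signals from the B cell receptor, CD40 and Toll-like receptors, and the BCL6 repressor of the germinal centre B cell is active in a state in which NF-kB target genes are largely quiet. The 10 genes described here were listed by name, from among 23250 gene symbols: these 5 subunits, the inhibitors NFKBIA, NFKBIE and TNFAIP3, the kinase IKBKE and the adaptor TRAF1. All 10 passed the filter on low values.

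The RNA came from Farage, SUDHL4 and SUDHL6, established human lines of diffuse large B cell lymphoma. In each line 3 libraries came from cells given the vehicle DMSO for 12 h and 3 from cells given a BCL6 inhibitor, named in the labels and the plots by a code, at 10 µM for 12 h, which makes 6 groups and 18 libraries. The series is about BCL6, EZH2 and a Polycomb complex with CBX8 and BCOR, and these libraries ask which transcripts change when BCL6 is inhibited. Nothing in the labels says that the replicates were grown separately, so a p-value here reflects the scatter among libraries alone, and that scatter may be technical.

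All 7 B cell markers examined, among them MS4A1 and PAX5, were at 1 CPM or more (a gene's reads scaled to a fixed total of reads in its library) on average in each group. Markers of T and NK cells summed to at most 2.984 CPM in any library and those of myeloid cells to at most 2.919 CPM. Epithelial and stromal markers summed to 59.12 to 66.7 CPM in DMSO-treated SUDHL4, nearly all of it DCN, and to 17.59 to 20.75 CPM after the inhibitor. They reached 7.414 CPM in Farage and 0.2416 CPM in SUDHL6, and the part of any such cells in the values below was not tested. Summed B cell markers were lower in the treated libraries of each line, for example 3692 to 3860 CPM with DMSO and 2163 to 2289 CPM with the inhibitor in Farage, and in bulk RNA fewer cells expressing a gene and less RNA per cell cannot be told apart. The libraries held between 6.29 and 25.49 M reads in listed genes, with replicate 3 of both SUDHL6 groups the shallowest. Replicates of SUDHL6 agreed least, and SUDHL4 DMSO replicate 3 lay towards the treated libraries, by a median of 12.07% of the treatment change over 723 strongly changed genes.

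Several of these genes are known to be NF-kB targets themselves, so the DNA ahead of their start sites was searched for the consensus kappa-B site, the decamer bound by NF-kB dimers, and for TTCCTNGAA, the core of the BCL6 motif, which overlaps the wider motif of STAT factors. Windows were the 250 bases before a RefSeq start site on GRCh38.p14, read on both strands. RELB and NFKBIE had no entry, and the other 8 genes had 14 windows. A kappa-B match was in 6 of these 14 windows, in NFKB1, NFKB2, REL, NFKBIA and TNFAIP3, against 9.96% of 35116 such windows of all genes. The genes were listed for this pathway and some have several windows, so these shares were not tested against each other. No window of the 8 genes held TTCCTNGAA, which was in 1.37% of all windows. The 3 windows shown first belong to genes that were high in Farage and fell there with the inhibitor. The last belongs to IKBKE, which fell in every line and whose window has no match. TRAF1, also high in Farage and falling there, had no match in its windows. NFKB1 and REL had matches but no called change in Farage (0.02 and -0.16). Whether matches go with the responses was not tested. Matches to the kappa-B consensus are in capitals, and overlapping matches in NFKB2 form one run.
NFKB2, chr10:102394328-102394577, plus strand: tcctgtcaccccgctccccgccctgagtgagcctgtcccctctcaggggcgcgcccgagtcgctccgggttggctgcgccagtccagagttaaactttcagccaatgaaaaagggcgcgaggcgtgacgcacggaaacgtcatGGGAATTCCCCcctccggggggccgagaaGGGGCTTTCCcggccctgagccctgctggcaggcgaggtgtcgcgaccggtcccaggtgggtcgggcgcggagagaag
NFKBIA, chr14:35404750-35404999, minus strand: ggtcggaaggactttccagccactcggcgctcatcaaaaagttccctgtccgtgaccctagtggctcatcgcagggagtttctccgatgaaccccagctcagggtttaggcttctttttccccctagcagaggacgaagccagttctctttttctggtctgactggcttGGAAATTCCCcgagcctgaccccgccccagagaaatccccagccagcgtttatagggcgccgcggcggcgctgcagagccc
TNFAIP3, chr6:137867009-137867258, plus strand: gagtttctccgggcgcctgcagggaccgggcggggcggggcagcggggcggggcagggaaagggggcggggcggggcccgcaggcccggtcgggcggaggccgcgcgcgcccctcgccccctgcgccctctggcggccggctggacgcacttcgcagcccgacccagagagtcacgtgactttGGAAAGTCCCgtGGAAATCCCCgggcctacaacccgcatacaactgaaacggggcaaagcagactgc
IKBKE, chr1:206470226-206470475, plus strand: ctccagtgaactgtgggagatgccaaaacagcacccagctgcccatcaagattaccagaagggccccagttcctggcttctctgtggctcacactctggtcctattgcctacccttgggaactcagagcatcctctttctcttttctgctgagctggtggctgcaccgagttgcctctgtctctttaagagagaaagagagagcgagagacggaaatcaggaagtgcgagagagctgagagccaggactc
A match is a description of these letters, not evidence of a bound site, and the absence of one says nothing about the factor outside the window.

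In untreated cells most of the 10 genes stood higher in Farage than in the other lines, and IKBKE and REL did not pass the test. Against SUDHL6, 7 genes were higher and 1 lower in Farage at an adjusted p under 0.05 (limma, Benjamini-Hochberg over 12769 genes). Over all genes tested 33.8% were called higher and 37.5% lower in that comparison. Against SUDHL4, 8 genes were higher and 0 lower, where 36.0% of all genes were called higher and 31.1% lower, and 0 of the 10 were lower also at an unadjusted p under 0.05 and with each alternative run, edgeR and DESeq2 included. The median log2 difference of the 10 genes was 1.89 against SUDHL6 and 2.18 against SUDHL4, beside medians of -0.05 and 0.05 over all genes. SUDHL6 also stood above SUDHL4 in 6 of the 10 and below it in 2, with 38.5% and 30.1% of all genes called higher and lower. Each of these calls at baseline held with every alternative run. The 3 baseline comparisons share DMSO libraries with each other and with the responses to the inhibitor, so they are not independent of one another.

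**Figure D1:**
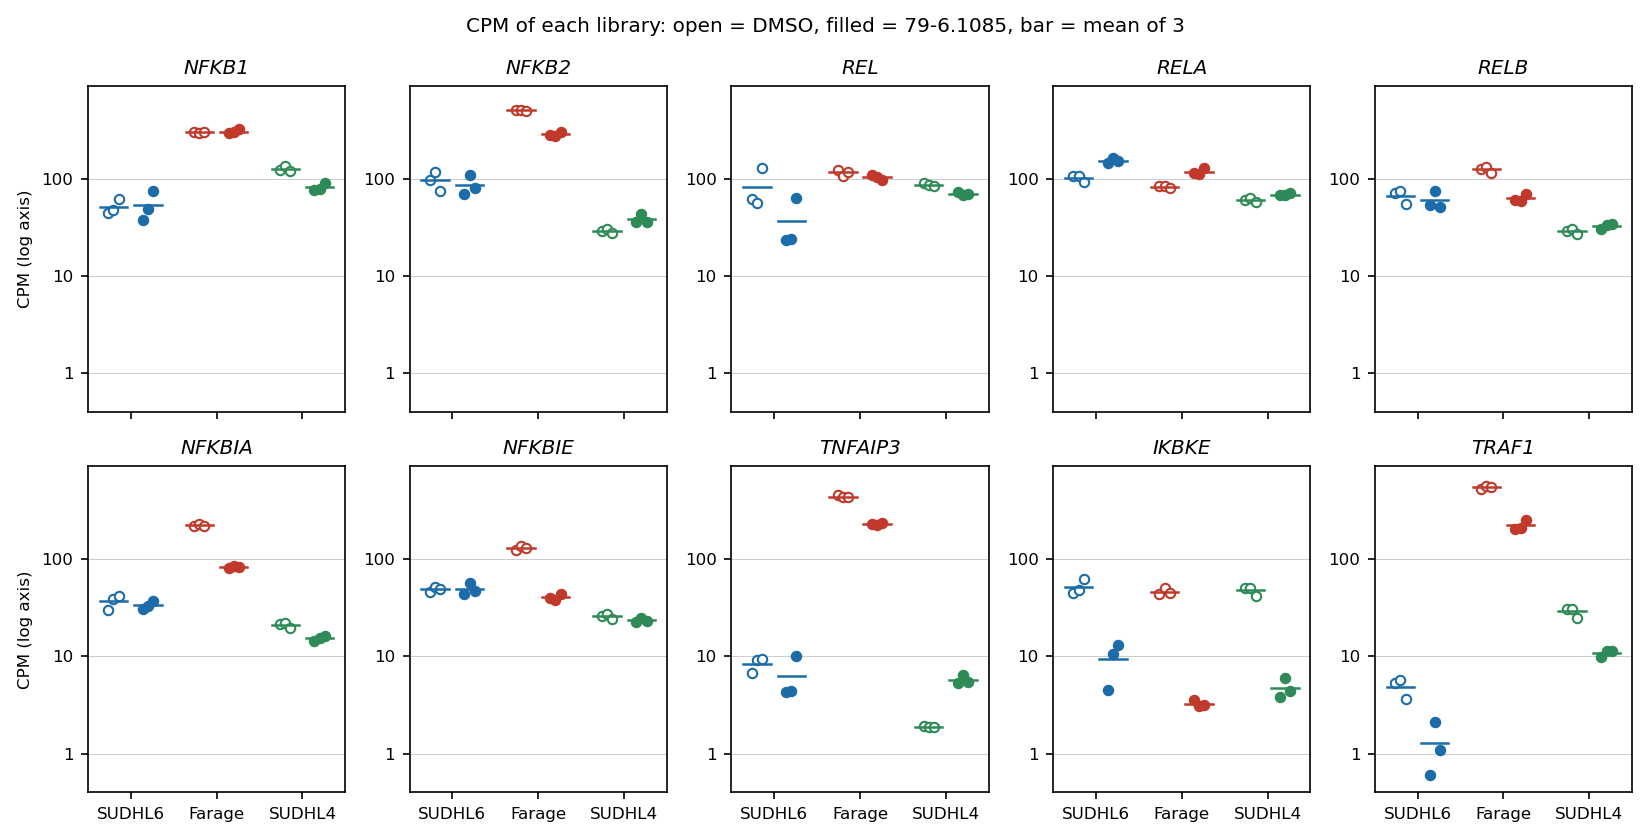
CPM of the 10 genes in each of the 18 libraries, on a log axis, by line, with DMSO libraries as open and inhibitor libraries as filled circles and a bar at the mean of 3. IKBKE starts at a similar level in the 3 lines and falls in each, from 46.51 to 52.05 CPM with DMSO to 3.276 to 9.393 CPM, while TNFAIP3 and TRAF1 start far higher in Farage.

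With the inhibitor, IKBKE and TRAF1 fell in each line and RELA rose in each, while most of the other changes differed between lines. In Farage 7 of the 10 genes fell and 1 rose, where 46.5% of all genes tested fell and 25.4% rose. In SUDHL6 3 fell and 1 rose, against 41.3% and 26.8% of all genes. In SUDHL4 4 fell and 3 rose, against 46.2% and 24.3%. The median log2 fold change of the 10 was -0.96 in Farage, -0.17 in SUDHL6 and -0.22 in SUDHL4, beside medians over all genes of -0.22, -0.13 and -0.21. The median gene thus fell on the deposited CPM scale, which has a fixed total per library. Median-of-ratios scaling moved those all-gene medians to -0.03, 0.00 and 0.00. It also moved the share of rises among all calls from 35.3 to 47.8% in Farage, from 39.4 to 49.0% in SUDHL6 and from 34.5 to 49.2% in SUDHL4. With it 2 of the 10 fell and 4 rose in SUDHL4, in place of 4 and 3, as was the case with edgeR and DESeq2.

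The responses themselves differed between lines. The response in SUDHL6 was above that in Farage for 5 of the 10 genes and below it for 0. Of all 12769 genes 36.8% differed in either direction, 2767 above and 1929 below. At an unadjusted p under 0.05 limma put 1 of the 10 below, REL, as it did with the replicate numbers as a block. For the 10, edgeR gave 0 below and DESeq2 gave 2. The response in SUDHL4 was above that in Farage for 5 of the 10 and below it for 1. Of all genes 37.4% differed, 2260 above and 2515 below. Between SUDHL6 and SUDHL4, 1 of the 10 differed in each direction. Of all genes 35.0% differed, 2875 above and 1599 below. With the replicate block 3 of the 10 differed in each direction.

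**Figure D2:**
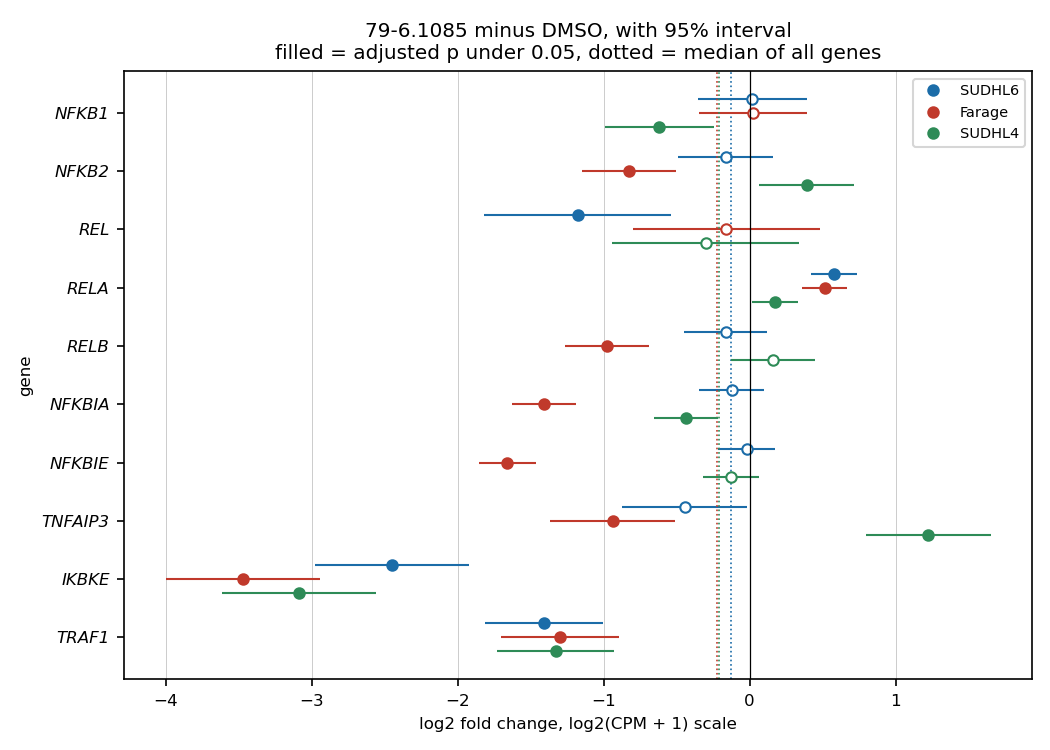
Log2 fold change of inhibitor over DMSO for the 10 genes in each line, on the log2(CPM + 1) scale, with the 95% interval of the limma model as a line, filled circles for calls and a dotted line at the median of all genes. NFKBIE, NFKBIA, RELB and NFKB2 in Farage lie to the left of their values in SUDHL6 and SUDHL4, while IKBKE and TRAF1 lie to the left of 0 in each line.

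Of the subunits, NFKB1 encodes the precursor that is processed to a DNA-binding subunit of the classical dimer. In SUDHL6 it was at 44.18, 47.95 and 62.33 CPM in the DMSO libraries and at 37.39, 48.54 and 75.25 CPM in the treated ones. In Farage it was at 299.4, 297.6 and 305.7 CPM with DMSO and at 294.8, 300.1 and 322.9 CPM with the inhibitor. In SUDHL4 it was at 124.1, 135.9 and 119 CPM with DMSO and at 76.84, 78.45 and 90.53 CPM with the inhibitor. The treated and DMSO values overlapped in SUDHL6 and Farage and were apart in SUDHL4. The DMSO level in Farage was 5.84-fold that in SUDHL6 and 2.38-fold that in SUDHL4 (log2 differences 2.54 and 1.25, adjusted p = 1.15e-09 and 8.7e-06). The inhibitor moved NFKB1 by 0.02 in SUDHL6 (95% interval -0.36 to 0.39) and by 0.02 in Farage (-0.35 to 0.40), and in SUDHL4 it fell by 0.62 (SE 0.176, adjusted p = 0.00477). That fall did not pass the threshold with edgeR (-0.30, adjusted p = 0.102), with DESeq2 (-0.31, adjusted p = 0.104) or with median-of-ratios scaling (-0.31, adjusted p = 0.113). The response in SUDHL6 lay 0.64 above that in SUDHL4 (adjusted p = 0.0575), which was called with the replicate block (adjusted p = 0.00359). The response in SUDHL4 lay 0.64 below that in Farage (log2 difference -0.64, adjusted p = 0.0527), a value that passed the threshold with only those lines in the fit (adjusted p = 4.42e-05).

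NFKB2 encodes the precursor used by the alternative pathway, where it pairs with RELB. In Farage it was at 515.5, 512.5 and 500.8 CPM with DMSO and at 281.9, 278.2 and 300.8 CPM with the inhibitor. In SUDHL6 the values were 98.04, 118.5 and 74.96 CPM with DMSO and 69.52, 110.4 and 80.45 CPM with the inhibitor, and in SUDHL4 they were 29.15, 30.53 and 27.63 CPM and then 36.12, 43.75 and 35.92 CPM. The DMSO libraries of the 3 lines did not overlap, and Farage was 5.24-fold above SUDHL6 and 17.5-fold above SUDHL4 (log2 differences 2.40 and 4.09, adjusted p = 3.75e-10 and 2.77e-13). In Farage NFKB2 fell by 0.83 (SE 0.153, adjusted p = 0.000139), to 56.3% of its DMSO mean. In SUDHL4, where the treated libraries lay above the DMSO ones, it rose by 0.39 (SE 0.153, adjusted p = 0.0313). This rise was not called without the filter on low genes (adjusted p = 0.0504) or without SUDHL4 DMSO replicate 1 (0.0634), DMSO replicate 3 (0.0862) or treated replicate 2 (0.133). In SUDHL6 the groups overlapped (log2 fold change -0.16, adjusted p = 0.361), and the value was called lower without SUDHL6 treated replicate 2 (-0.35, adjusted p = 0.0368). The response in SUDHL4 differed from that in Farage by 1.22 (adjusted p = 0.000337). That in SUDHL6 differed from Farage by 0.66 (adjusted p = 0.0243), a call that was lost with only those lines in the fit (adjusted p = 0.0595) and without SUDHL6 DMSO replicate 3 (0.0604), SUDHL6 treated replicate 2 (0.0564) or Farage treated replicate 2 (0.0523). SUDHL6 and SUDHL4 differed by -0.55 (adjusted p = 0.0573), called with the replicate block (adjusted p = 0.00792), edgeR (0.0141), DESeq2 (0.00346) and median-of-ratios scaling (0.0114).

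REL encodes c-Rel, a subunit with a large part in B cell activation. In SUDHL6 its DMSO libraries were at 61.36, 56.41 and 128.4 CPM and its treated libraries at 23.75, 24.11 and 63.29 CPM. In Farage the values were 124.4, 107.9 and 117.3 CPM with DMSO and 110.6, 105.2 and 96.8 CPM with the inhibitor. In SUDHL4 they were 91.15, 85.88 and 83.91 CPM with DMSO and 73.04, 68.38 and 69.66 CPM with the inhibitor. Replicate 3 of both SUDHL6 groups, the shallow libraries, stood above its partners, so the groups overlapped although each treated library was below the DMSO library of the same number. In SUDHL6 REL fell by 1.18 (SE 0.302, adjusted p = 0.00243), and the replicate block gave an adjusted p of 1.53e-07. With only that line in the fit and no block the adjusted p was 0.0988. In Farage (-0.16, adjusted p = 0.657) and SUDHL4 (-0.30, adjusted p = 0.392) it was not called, although in SUDHL4 all treated libraries were below all DMSO libraries. The SUDHL4 value was called with only that line in the fit (adjusted p = 0.0015) and without both SUDHL6 replicate 3 libraries (0.0011), and it was 0.01 with median-of-ratios scaling. At baseline REL differed between Farage and SUDHL6 by 0.60 (adjusted p = 0.0855) and between Farage and SUDHL4 by 0.42 (adjusted p = 0.235). Without both SUDHL6 replicate 3 libraries these were 0.97 (adjusted p = 1.7e-08) and 0.42 (adjusted p = 6.84e-05), and SUDHL6 minus SUDHL4 moved from -0.18 to -0.56 (adjusted p = 1.25e-05). The response in SUDHL6 lay below that in Farage by a log2 difference of -1.02 (adjusted p = 0.073) and below that in SUDHL4 by -0.88 (adjusted p = 0.124), both called with the replicate block (adjusted p = 3.12e-05 and 0.000117).

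RELA encodes p65, the main activating subunit of the classical dimer. In SUDHL6 it went from 106.3, 107.9 and 93.17 CPM with DMSO to 146, 162.7 and 151.5 CPM with the inhibitor. In Farage the values were 83.83, 84.49 and 79.74 CPM and then 116.1, 111.4 and 128.2 CPM, and in SUDHL4 they were 60.97, 64 and 58.12 CPM and then 67.51, 67.84 and 71.51 CPM. In each line every treated library stood above every DMSO library. RELA rose by 0.58 in SUDHL6 (SE 0.0738, adjusted p = 3.38e-06), by 0.51 in Farage (adjusted p = 1.06e-05) and by 0.17 in SUDHL4 (adjusted p = 0.0449). The SUDHL4 rise was not called with the replicate block (adjusted p = 0.0609) or without 1 of 9 libraries, with adjusted p-values of 0.0529 to 0.144. Those 9 are all SUDHL4 libraries but DMSO replicate 2, the 3 Farage DMSO libraries and Farage treated replicate 1. The rise in SUDHL4 was smaller than in SUDHL6 (SUDHL6 minus SUDHL4 0.41, adjusted p = 0.00678) and than in Farage (SUDHL4 minus Farage -0.34, adjusted p = 0.0175; adjusted p = 0.0514 without Farage treated replicate 3). At baseline RELA had a narrower range than the other called genes, with 102.5 CPM in SUDHL6, 82.69 CPM in Farage and 61.03 CPM in SUDHL4. It was the gene of the 10 that was lower in Farage than in SUDHL6 (-0.30, adjusted p = 0.00154), and it was higher in Farage than in SUDHL4 (0.43, adjusted p = 6.76e-05).

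RELB encodes the partner of the processed NFKB2 product. Its Farage libraries were at 127.3, 132.1 and 115.9 CPM with DMSO and at 60.5, 58.98 and 69.87 CPM with the inhibitor. In SUDHL6 the values were 71.57, 74.87 and 54.62 CPM and then 53.26, 75.1 and 51.58 CPM, and in SUDHL4 they were 29.3, 30.81 and 27.1 CPM and then 30.25, 33.25 and 34.34 CPM. The treated Farage libraries fell to about the level of SUDHL6 and overlapped both SUDHL6 groups. The DMSO level in Farage was 1.87-fold that in SUDHL6 and 4.3-fold that in SUDHL4 (log2 differences 0.90 and 2.07, adjusted p = 1.56e-05 and 5.24e-10). In Farage RELB fell by 0.98 (SE 0.135, adjusted p = 6.83e-06), while the groups overlapped in SUDHL6 (-0.17, adjusted p = 0.293) and SUDHL4 (0.16, adjusted p = 0.305). Without SUDHL6 treated replicate 2 it was called lower in SUDHL6 (-0.34, adjusted p = 0.0208). Other fits called it higher in SUDHL4: edgeR (0.49, adjusted p = 0.00177), DESeq2 (0.48, adjusted p = 0.000314) and the scaling by median of ratios (0.46, adjusted p = 0.00189). Its response differed from that in Farage by 0.81 in SUDHL6 (adjusted p = 0.00336) and by 1.14 in SUDHL4 (adjusted p = 0.000203).

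Ratios of reads within a library show how pairs of subunits moved against each other. They carry no test and rest on the same values. The mean log2 ratio of NFKB2 to NFKB1 went from 0.76 to -0.09 in Farage and from -2.12 to -1.09 in SUDHL4, with no overlap in either line. In SUDHL6 it was 0.91 and 0.73, with library values of 0.27 to 1.31 and 0.10 to 1.19 that overlapped. The ratio of RELB to RELA went from 0.60 to -0.91 in Farage and from -0.62 to -1.38 in SUDHL6, and was -1.07 and -1.08 in SUDHL4.

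NFKBIA encodes IkB-alpha, the inhibitor that NF-kB itself induces. In Farage it was at 218.8, 229 and 221.6 CPM with DMSO and at 81.94, 85.12 and 83.35 CPM with the inhibitor. In SUDHL6 it was at 29.93, 39.27 and 42.3 CPM and then at 30.85, 33.22 and 37.2 CPM. In SUDHL4 it was at 21.71, 22.2 and 19.83 CPM and then at 14.57, 15.45 and 16.29 CPM. The Farage groups were apart from each other and from those of both other lines, and the SUDHL4 groups were apart too. In Farage NFKBIA fell by 1.41 (SE 0.104, adjusted p = 6.31e-09), to 37.4% of the DMSO mean, and in SUDHL4 it fell by 0.44 (adjusted p = 0.00129). The SUDHL4 fall did not pass the threshold with edgeR (-0.14, adjusted p = 0.251), with DESeq2 (-0.15, adjusted p = 0.246) or with median-of-ratios scaling (-0.14, adjusted p = 0.244). In SUDHL6 the value was -0.12 (adjusted p = 0.305), called lower without SUDHL6 DMSO replicate 1 (-0.27, adjusted p = 0.012). The Farage response was lower than that in SUDHL6 by 1.28 (SUDHL6 minus Farage, adjusted p = 5.74e-06) and than that in SUDHL4 by 0.97 (SUDHL4 minus Farage, adjusted p = 7.89e-05). SUDHL6 and SUDHL4 differed by 0.31 (adjusted p = 0.112), called with the replicate block (adjusted p = 0.0484). At baseline NFKBIA was 6-fold higher in Farage than in SUDHL6 and 10.5-fold higher than in SUDHL4 (log2 differences 2.57 and 3.33).

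NFKBIE encodes IkB-epsilon, a related inhibitor that holds REL- and RELA-containing dimers. In Farage its libraries were at 125.4, 137.1 and 128.9 CPM with DMSO and at 39.71, 38.27 and 43.92 CPM with the inhibitor. In SUDHL6 they were at 46.38, 52.22 and 49.48 CPM and then at 43.67, 56.22 and 46.63 CPM, and in SUDHL4 at 26.13, 27.17 and 24.32 CPM and then at 22.47, 25.09 and 23.19 CPM. Only the Farage groups were apart, and with the inhibitor the Farage level reached that of SUDHL6. In Farage NFKBIE fell by 1.66 (SE 0.0917, adjusted p = 2.98e-10), to 31.1% of the DMSO mean. In SUDHL6 the value was -0.02 (95% interval -0.22 to 0.17, adjusted p = 0.861) and in SUDHL4 -0.13 (-0.32 to 0.07, adjusted p = 0.225). The differences of 1.64 between SUDHL6 and Farage (adjusted p = 1.17e-07) and of 1.53 between SUDHL4 and Farage (adjusted p = 1.75e-07) had the smallest p-values among the 10 genes. At baseline Farage was 2.64-fold above SUDHL6 and 5.04-fold above SUDHL4 (log2 differences 1.39 and 2.29).

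TNFAIP3 encodes A20, a ubiquitin-editing enzyme that shuts off signalling to NF-kB and is induced by it. In Farage it was at 455.5, 430.8 and 433.5 CPM with DMSO and at 229.3, 224.1 and 234.1 CPM with the inhibitor. In SUDHL6 it was at 6.703, 9.175 and 9.424 CPM and then at 4.345, 4.441 and 10.15 CPM. In SUDHL4 it was at 1.934, 1.9 and 1.876 CPM and then at 5.386, 6.478 and 5.508 CPM. The low SUDHL4 values rest on 53 to 60 reads per DMSO library and 119 to 182 reads per treated library. The Farage DMSO mean of 439.9 CPM was 52.2-fold that of SUDHL6 and 231-fold that of SUDHL4 (log2 differences 5.56 and 7.25, adjusted p = 1.76e-13 and 4.67e-15). With the inhibitor TNFAIP3 in Farage fell by 0.94 (SE 0.202, adjusted p = 0.000555), and in SUDHL4 it rose by 1.22 (adjusted p = 4.39e-05), 3.04-fold in mean CPM. In SUDHL6 replicates 1 and 2 were lower with the inhibitor and replicate 3 was slightly higher (-0.44, adjusted p = 0.0618). That value was called with the replicate block (adjusted p = 0.0181), without both replicate 3 libraries (-0.72, adjusted p = 5.17e-05), without DMSO replicate 1 (-0.58, adjusted p = 0.0279) and without treated replicate 3 (-0.79, adjusted p = 1.45e-05). The response in SUDHL4 lay 2.16 above that in Farage (adjusted p = 2.09e-05), and SUDHL6 minus SUDHL4 was -1.67 (adjusted p = 0.000327). SUDHL6 and Farage differed by 0.49 (95% interval -0.11 to 1.10, adjusted p = 0.193). The DMSO level also differed between the lines in which the response differed, and the part of that level in the response was not tested.

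IKBKE encodes IKK-epsilon, a kinase related to TBK1 that acts in innate immune signalling and can feed into NF-kB. In SUDHL6 it was at 45.42, 48.74 and 62.01 CPM with DMSO and at 4.474, 10.66 and 13.05 CPM with the inhibitor. In Farage it was at 44.16, 50.93 and 44.45 CPM and then at 3.551, 3.126 and 3.152 CPM. In SUDHL4 it was at 50.46, 51.11 and 41.64 CPM and then at 3.874, 6.051 and 4.443 CPM. The DMSO libraries of the 3 lines overlapped, and each treated library lay far below every DMSO library. IKBKE fell in SUDHL6 (log2 fold change -2.45, SE 0.249, adjusted p = 2.92e-07), in Farage (-3.47, adjusted p = 4.52e-09) and in SUDHL4 (-3.09, adjusted p = 1.55e-08), which left 18, 7.04 and 10% of the DMSO mean. These 3 falls were called with every alternative run. At baseline Farage minus SUDHL6 was -0.15 (95% interval -0.68 to 0.38, adjusted p = 0.607), Farage minus SUDHL4 was -0.03 (-0.56 to 0.49, adjusted p = 0.916) and SUDHL6 minus SUDHL4 was 0.12 (-0.41 to 0.64, adjusted p = 0.703). The fall was 1.03 smaller in SUDHL6 than in Farage (SUDHL6 minus Farage 1.03, adjusted p = 0.0315), where treated SUDHL6 libraries spread from 4.474 to 13.05 CPM. That difference was not called with only those lines in the fit (adjusted p = 0.069) or when 1 of 7 libraries was left out, with adjusted p-values of 0.0591 to 0.0712. The 7 were SUDHL6 DMSO replicates 1 and 2, SUDHL6 treated replicates 2 and 3, Farage DMSO replicate 2 and Farage treated replicates 2 and 3. SUDHL6 minus SUDHL4 was 0.64 (adjusted p = 0.175) and was called without SUDHL6 treated replicate 1 (1.05, adjusted p = 0.00116).

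TRAF1 encodes an adaptor of TNF receptors that binds TRAF2 and is itself induced by NF-kB. In Farage it was at 521.7, 565.2 and 552.9 CPM with DMSO and at 204.9, 207.9 and 253.5 CPM with the inhibitor. In SUDHL4 it was at 31.09, 31.1 and 24.82 CPM and then at 9.961, 11.39 and 11.34 CPM, and in SUDHL6 at 5.354, 5.663 and 3.641 CPM and then at 0.6023, 2.132 and 1.087 CPM. All 6 groups were apart from one another. The Farage DMSO mean of 546.6 CPM was 112-fold that of SUDHL6 and 18.8-fold that of SUDHL4 (log2 differences 6.56 and 4.20, adjusted p = 8.09e-15 and 3.6e-12), and SUDHL4 stood 5.94-fold above SUDHL6. TRAF1 fell in SUDHL6 (log2 fold change -1.41, SE 0.19, adjusted p = 6.18e-06), in Farage (-1.30, adjusted p = 1.25e-05) and in SUDHL4 (-1.33, adjusted p = 9.52e-06). This left 26.1, 40.6 and 37.6% of the DMSO mean, and the log2(CPM + 1) scale understates the fall in SUDHL6, where the level is low. Responses in the 3 pairs of lines differed by -0.11 (95% interval -0.68 to 0.46), -0.03 (-0.60 to 0.54) and -0.08 (-0.65 to 0.49). DESeq2, which uses no pseudocount, called TRAF1 in SUDHL6 lower than in Farage (-0.73, adjusted p = 0.0252) and than in SUDHL4 (-0.67, adjusted p = 0.0471). TRAF1 overlaps PHF19, a Polycomb accessory gene, in the RefSeq annotation of GRCh38.p14. The reads were aligned to hg19, where an overlap was not checked, and any shared reads cannot be told apart from the deposited CPM. PHF19 was at 100.4 ± 23.1 CPM with DMSO and 20.31 ± 12.5 CPM with the inhibitor in SUDHL6 (SD, n = 3). It was at 95.08 ± 0.801 and 23.19 ± 2.51 CPM in Farage and at 44.28 ± 4.56 and 9.916 ± 1.29 CPM in SUDHL4. The part of PHF19 reads in the TRAF1 falls was not tested.

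**Figure D3:**
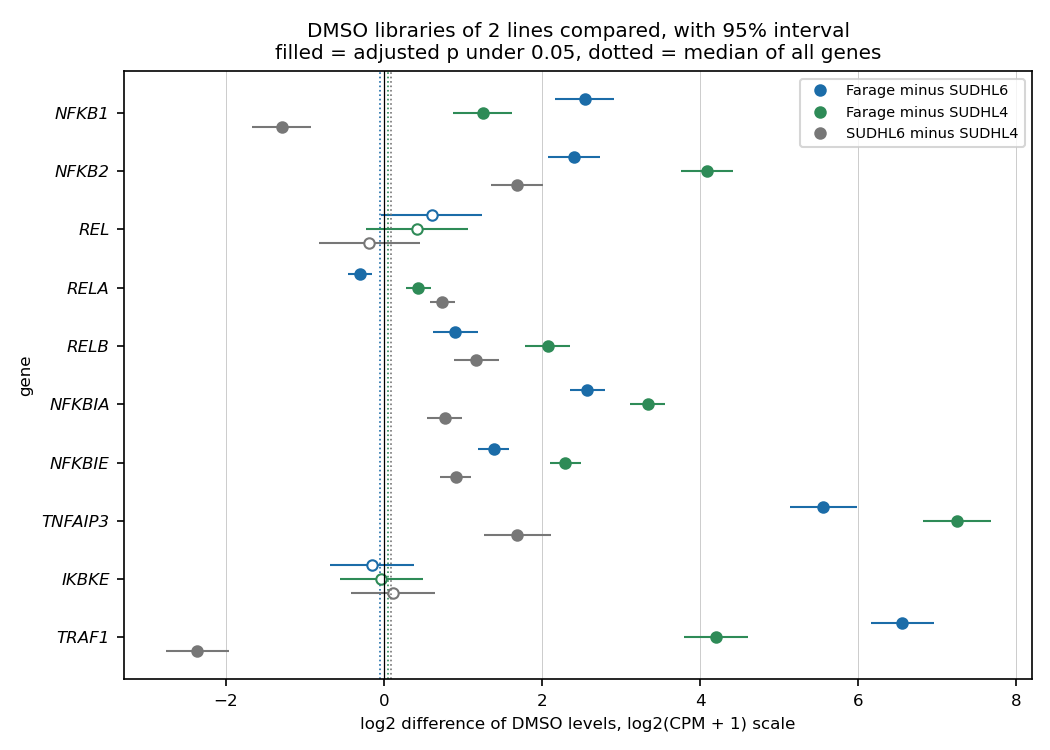
Log2 difference of DMSO levels between pairs of lines for the 10 genes, on the log2(CPM + 1) scale, with 95% intervals, filled circles for calls and dotted lines at the medians of all genes. TNFAIP3 and TRAF1 have the largest differences of Farage from both other lines among the 10, at 5.56 and 6.56 against SUDHL6 and 7.25 and 4.20 against SUDHL4, while the intervals of IKBKE and REL include 0.

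In order of DMSO level, Farage came first for NFKB1, NFKB2, RELB, NFKBIA, NFKBIE, TNFAIP3 and TRAF1 with no overlap with the next line. SUDHL6 came before SUDHL4 for NFKB2, RELA, RELB, NFKBIA, NFKBIE and TNFAIP3, and SUDHL4 before SUDHL6 for NFKB1 and TRAF1. With the inhibitor, Farage still stood above the treated libraries of both other lines for NFKB1, NFKB2, NFKBIA, TNFAIP3 and TRAF1. For REL, where DMSO libraries of Farage and SUDHL6 overlapped, treated Farage libraries also stood above, at 96.8 CPM or more. Treated SUDHL6 and SUDHL4 libraries reached at most 63.29 and 73.04 CPM for REL. Treated Farage overlapped treated SUDHL6 for RELB and was below it for NFKBIE, at 40.63 against 48.84 CPM, with an overlap of single libraries. The drop in Farage thus took RELB and NFKBIE to the range of SUDHL6, while TNFAIP3 at 229.2 CPM stayed far above every library of the other lines, which reached at most 10.15 CPM.

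Other genes of the pathway were described with 6 lists of 106 genes, of which 97 were tested. The direct target list held 30 tested genes of 35, such as chemokines, survival factors and costimulatory receptors. In Farage against SUDHL6 23 of them were higher and 1 lower, with a median log2 difference of 2.45, and against SUDHL4 23 were higher and 2 lower, with a median of 2.13. Over all genes 33.8% were higher and 37.5% lower in Farage than in SUDHL6, and 36.0% and 31.1% against SUDHL4, with medians of -0.05 and 0.05. The chemokine receptor CCR7 was at 303.8 ± 3.09 CPM in Farage and 1.083 ± 0.221 CPM in SUDHL6 (7.20, adjusted p = 1.14e-11). IRF4, the plasma cell transcription factor, was at 334.9 ± 9.14 CPM in Farage and 0.9274 ± 0.551 CPM in SUDHL4 (7.48, adjusted p = 4.2e-11). Most of the called target genes were higher in Farage at baseline, as were most of the called members. A gene with reads in Farage alone passes the low-value filter only there, so its higher Farage value was fixed in advance. A gene with reads in another line alone likewise has a lower Farage value fixed in advance. Such genes were not counted apart, so the counts and medians of the lists and of all genes include them. TNFRSF8 in the lists below passes through Farage alone. So does TNIP3, with responses of -0.000 in SUDHL6 and 0.017 in SUDHL4 and a baseline difference of 0.000 between these lines. TNFAIP2 and VCAM1, with responses of -0.000 in SUDHL6 and of -0.042 and 0.022 in SUDHL4, may be further cases. The target genes did not share a direction after the inhibitor. In Farage 6 rose and 13 fell, shares near the 25.4% and 46.5% of all genes. In SUDHL6 10 rose and 5 fell, against 26.8% and 41.3% of all genes, and in SUDHL4 7 rose and 8 fell, against 24.3% and 46.2%. Their medians were -0.44, 0.00 and -0.04, beside -0.22, -0.13 and -0.21 over all genes. Without both replicate 3 libraries 9 fell in SUDHL6. TNFAIP2 in Farage fell from 25.5 ± 1.66 CPM to a mean of 4.173 ± 0.857 CPM (-2.37, adjusted p = 2.3e-11), while LITAF rose there from 18.98 ± 0.764 to 77.22 ± 2.56 CPM (1.97, adjusted p = 6.14e-09). CCR7 rose in SUDHL6 to 61.35 ± 47.5 CPM (4.63, adjusted p = 1.61e-08), with a wide spread of the treated libraries. In SUDHL4 its level went from 3.073 ± 0.41 to 18.29 ± 6.67 CPM (2.19, adjusted p = 3.66e-05).

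**Figure D4:**
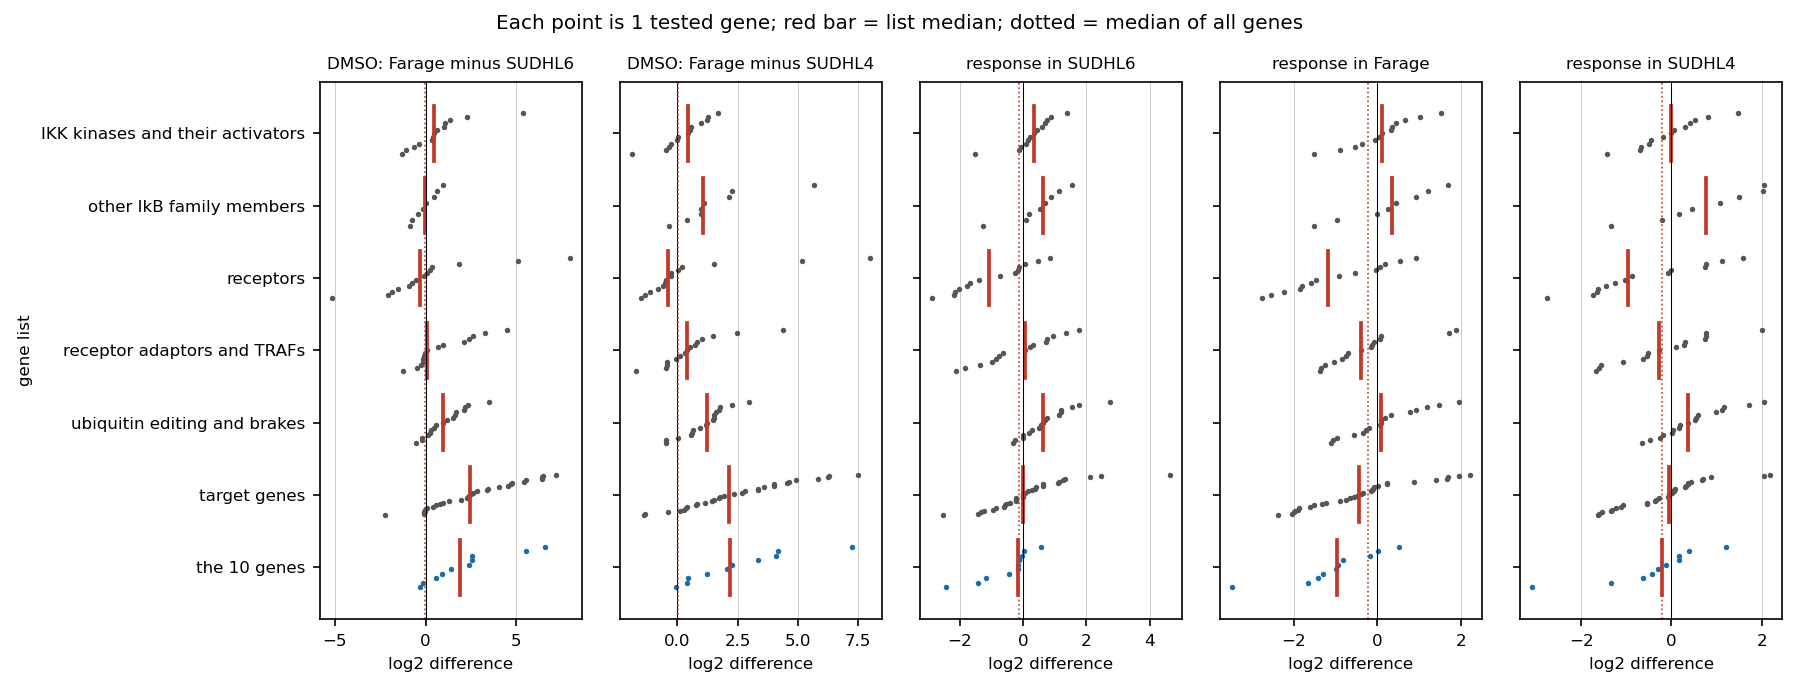
Log2 difference of each tested gene of the 6 pathway lists and of the 10 genes, for 2 baseline comparisons and 3 responses, with a red bar at the list median and a dotted line at the median of all genes. The target list lies mostly to the right in both baseline panels, with medians of 2.45 and 2.13, and on both sides of 0 in the responses.

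A list of 17 genes of ubiquitin editing and brakes also held RNF31, RBCK1 and SHARPIN, which are not brakes. Of the 17, 12 were higher and 1 lower in Farage than in SUDHL6, and 14 higher and 2 lower than in SUDHL4. The medians were 0.97 and 1.23. TNIP3, higher in both comparisons, passes the low-value filter through Farage alone, so these calls of it were fixed in advance. The gene lower than in SUDHL6 was SHARPIN (-0.525, adjusted p = 0.000571). The shares over all genes were 33.8% higher and 37.5% lower, and 36.0% and 31.1%. CYLD, a deubiquitinase that dampens the pathway, was at 242.6 ± 8.18 CPM in Farage and 21.07 ± 5.26 CPM in SUDHL6 (3.49, adjusted p = 9.03e-14). Of these 17, 12 rose and 1 fell in SUDHL6, 9 rose and 3 fell in SUDHL4, and 6 rose and 5 fell in Farage, where median-of-ratios scaling and edgeR gave 10 rises. Of all genes, 26.8% rose and 41.3% fell in SUDHL6, 24.3% and 46.2% in SUDHL4, and 25.4% and 46.5% in Farage. The list medians were 0.63, 0.36 and 0.10 in that order. SHARPIN was the fall in SUDHL6 (-0.314) and also fell in SUDHL4 (-0.645) and Farage (-1.098). RNF31 was among the falls in SUDHL4 (-0.479) and Farage (-0.562). RNF11, a partner of A20, rose in SUDHL6 from 5.652 ± 1.43 to 43.61 ± 12.6 CPM (2.73, adjusted p = 8.64e-09). Its SUDHL4 level rose from 7.888 ± 2.34 to 35.41 ± 3.53 CPM (2.06, adjusted p = 9.71e-08). ZFAND5 rose in Farage from 90.72 ± 2.74 to 356.1 ± 8.3 CPM (1.96, adjusted p = 1.65e-07). NFKBIA, NFKBIE and TNFAIP3, which are not in this list, fell in Farage.

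Of 13 IKK kinases and their activators other than IKBKE, 7 rose and 1 fell in SUDHL6, 6 rose and 4 fell in Farage, and 5 rose and 5 fell in SUDHL4, with medians of 0.34, 0.12 and -0.01. Beside them stand 26.8% of all genes rising and 41.3% falling in SUDHL6, 25.4% and 46.5% in Farage, and 24.3% and 46.2% in SUDHL4. With median-of-ratios scaling and edgeR 3 fell in SUDHL4. AZI2, an adaptor of TBK1 and IKK-epsilon, rose in each line, in Farage from 27.5 ± 1.18 to 81.25 ± 2.94 CPM (1.53, adjusted p = 3.81e-10), while IKBKE fell. TAB1, an activator of the kinase TAK1, fell in each line, for example from 33.71 ± 0.745 to 11.1 ± 0.892 CPM in Farage (-1.52, adjusted p = 2.44e-07). At baseline MAP3K8 was at 67.08 ± 1.85 CPM in Farage and 0.8277 ± 1.14 CPM in SUDHL6 (5.39, adjusted p = 1.87e-10). MAP3K14, the kinase of the alternative pathway, was at 80.33 ± 1.15 CPM in Farage and 24.48 ± 2.21 CPM in SUDHL4 (1.68, adjusted p = 1.33e-10). IKBKB was lower in Farage than in SUDHL6, at 48.26 ± 3.25 and 122.4 ± 16.2 CPM (-1.32, adjusted p = 1.96e-08).

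The list of other IkB family members also held NKIRAS1, NKIRAS2 and COMMD1, which are not IkB proteins. Its 8 genes had 5 rises and 1 fall in SUDHL6 and in SUDHL4 and 4 rises and 2 falls in Farage. Its medians were 0.62, 0.77 and 0.35, where 26.8, 24.3 and 25.4% of all genes rose and 41.3, 46.2 and 46.5% fell in SUDHL6, SUDHL4 and Farage. COMMD1 was the fall in SUDHL6 (-1.281) and in SUDHL4 (-1.341). In Farage COMMD1 fell from 31.92 ± 3.76 to 10.49 ± 0.859 CPM (-1.515, adjusted p = 4.77e-08), and BCL3 fell too (-0.959). NFKBIB, a further cytoplasmic inhibitor, rose in Farage from 24.59 ± 1.49 to 81.86 ± 1.36 CPM (1.70, adjusted p = 1.24e-10), where NFKBIA and NFKBIE fell. NFKBID, a nuclear IkB protein, rose in SUDHL6 from 20.74 ± 3.59 to 61.61 ± 7.04 CPM (1.53, adjusted p = 1.68e-07). NFKBIZ was at 89.21 ± 0.649 CPM in Farage and 0.8125 ± 0.349 CPM in SUDHL4 with DMSO (5.65, adjusted p = 4.28e-15), and it rose in SUDHL4 to 6.432 ± 1.03 CPM (2.04, adjusted p = 8.84e-09). TNFAIP3 likewise rose in SUDHL4 and was higher in Farage than in SUDHL4 at baseline.

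Of 14 tested receptors that feed the pathway, 8 fell and 2 rose in SUDHL6, 9 fell and 2 rose in Farage, and 8 fell and 4 rose in SUDHL4. All genes also fell more often than they rose, at 41.3% against 26.8% in SUDHL6, 46.5% against 25.4% in Farage and 46.2% against 24.3% in SUDHL4. The medians of the receptors were -1.06, -1.18 and -0.95, beside -0.13, -0.22 and -0.21 over all genes. TLR10, a Toll-like receptor of B cells, fell in each, for example in Farage from 114.5 ± 1.99 to 16.05 ± 1.2 CPM (-2.76, adjusted p = 2.31e-08). With DMSO, 4 of the 14 receptors were higher and 6 lower in Farage than in SUDHL6. Against SUDHL4, 3 were higher and 6 lower. The medians were -0.29 and -0.37. Of all genes, 33.8% were higher and 37.5% lower, and then 36.0% and 31.1%. TNFRSF8 (CD30), which signals through TRAF proteins, was at 329.9 ± 7.36 CPM in Farage with DMSO. In SUDHL6 and SUDHL4 it was at 0.3976 ± 0.49 and 0.3127 ± 0.0904 CPM. TNFRSF8 passes the low-value filter through Farage alone, so its place among the receptors higher in Farage was fixed in advance. TNFRSF13B was at 0.02388 ± 0.0207 CPM in Farage and 39.64 ± 22.3 CPM in SUDHL6, and Farage minus SUDHL4 was 0.018. It passes the low-value filter through SUDHL6 alone, so its place among the 6 receptors lower than in SUDHL6 was fixed in advance. TLR9 was at 14.48 ± 1.91 CPM in Farage and 42.52 ± 2.28 CPM in SUDHL4 (-1.50, adjusted p = 2.27e-05). Of 15 receptor adaptors and TRAFs, 6 rose and 7 fell in SUDHL6 and in SUDHL4, and 2 rose and 8 fell in Farage, where median-of-ratios scaling gave 5 rises and edgeR 4. The 7 falls are a share near that of all genes falling in SUDHL6 (41.3%) and SUDHL4 (46.2%), while 46.5% of all genes fell in Farage. The medians of 0.07, -0.28 and -0.38 in SUDHL6, SUDHL4 and Farage stand beside all-gene medians of -0.13, -0.21 and -0.22. TRAF6 rose in each line, in SUDHL4 from 23.48 ± 6.92 to 95.07 ± 5.69 CPM (2.01, adjusted p = 3.16e-09), while TRAF1 fell. At baseline 7 of the 15 were higher and 3 lower in Farage against SUDHL6, and likewise against SUDHL4, with medians of 0.085 and 0.406. Of all genes, 33.8% and 36.0% were higher and 37.5% and 31.1% lower. BIRC3, an inhibitor of apoptosis that binds TRAF2, was at 797.8 ± 33.2 CPM in Farage and 36.89 ± 2.55 CPM in SUDHL4 (4.40, adjusted p = 8.99e-12). IRAK1 was lower in Farage, at 60.14 ± 0.386 CPM, than in SUDHL6 (144 ± 18 CPM) and SUDHL4 (197.9 ± 20.9 CPM).

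For each of the 10 genes the genes with the most similar pattern over the 18 libraries were found, as a description without a test. Likeness was the root mean square difference of log2(CPM + 1) after each gene's own mean was removed, among 10906 genes of at least 2 CPM on average. The libraries share lines and treatment, which alone gives many genes like patterns. RELA had the closest match, KLC2 at 0.10, followed by CHD8 at 0.14. The nearest to IKBKE were NAPSB at 0.32 and TLR10 at 0.35, and those to TRAF1 were NCALD at 0.32 and PARP14 at 0.57. NFKBIE and RELB shared a neighbour, PHYH, at 0.22 and 0.21. The other first neighbours were USP46 for NFKB1 at 0.23, PTPRG for NFKB2 at 0.30, C4orf21 for REL at 0.30, MTERFD3 for RELB at 0.21, SHROOM1 for NFKBIA at 0.23 and MAN1A1 for TNFAIP3 at 0.52.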

How the data were processed

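The deposited values are CPM per gene symbol, made by the authors, 1 file per library. Per the submitters' processing notes the aligner was STAR and the build hg19, and per the labels the libraries used a TruSeq RNA kit. Neither the RefSeq release behind the gene symbols nor the strand setting of the counting is given in the sources used here. Whole reads could be recovered from 100% of the values within a tolerance of 0.01 reads. Listed genes made up 74.63 to 80.72% of the divisor of the deposited CPM, and 3 reads corresponded to 0.095 to 0.362 CPM by library. These depths limit counting precision only.

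Genes with at least 1 CPM in at least 3 libraries were tested (12769) with limma 3.58.1 in R 4.3.3 (trend) on log2(CPM + 1), in 1 model of 6 group means with 12 residual degrees of freedom, two-sided, with Benjamini-Hochberg adjustment over all genes and a threshold of 0.05. All lines share 1 spread per gene. Fold changes on this scale understate changes of low genes. On simulated data for the Farage response (12769 genes), 75% of 1.5-fold and 99% of 2-fold changes were recovered, with 14 false calls. The simulation gave every library the same mean per gene and a fixed dispersion, apart from the planted changes. These were planted in 100 genes per fold, each of at least 2 CPM on average. Differences between lines and the wider spread of SUDHL6 were left out. Recovery for genes with a wide spread, such as REL (SE 0.302), was thus not tested. Each result was recomputed with no filter (19369 genes), a mean of at least 5 CPM (9678 genes), a pseudocount of 0.25, median-of-ratios scaling, only the compared lines, edgeR 4.0.16 (quasi-likelihood) and DESeq2 1.42.0 on the recovered reads, a replicate block, leaving out both SUDHL6 replicate 3 libraries, and leaving out each library.

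Replicate numbers were taken from the labels. Treated and DMSO libraries of the same number deviated together in SUDHL6 (r of 0.42, 0.49 and 0.63 over genes), so they pair there, but not in Farage or SUDHL4. No replicates were duplicates (chi-square per degree of freedom 1.86 to 53.65). The 10 genes and the pathway lists were chosen with earlier results of these data known. The genes named from each list are those called with the largest change in each direction in a response or a baseline comparison of Farage, at a mean of at least 2 CPM, given in part. One further pathway list and one B cell marker are not reported here. Promoter windows come from RefSeq (GRCh38.p14).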

Additional observations from a re-analysis of the deposited data

Results flagged for a closer look

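Responses to the inhibitor that differed between lines, by the test of the difference itself in limma, were the results that stood out, and each compares DMSO and treated libraries of both lines. Between SUDHL6 and Farage the differences (SUDHL6 minus Farage, log2) were 0.66 for NFKB2, 0.81 for RELB, 1.28 for NFKBIA, 1.64 for NFKBIE and 1.03 for IKBKE. Between SUDHL4 and Farage (SUDHL4 minus Farage) they were 1.22 for NFKB2, -0.34 for RELA, 1.14 for RELB, 0.97 for NFKBIA, 1.53 for NFKBIE and 2.16 for TNFAIP3. Between SUDHL6 and SUDHL4 (SUDHL6 minus SUDHL4) they were 0.41 for RELA and -1.67 for TNFAIP3. NFKBIE, NFKBIA, RELB and NFKB2 differed for Farage against both other lines, and these comparisons share the Farage libraries.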

How the results depend on the processing

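Each of the 90 values of the 10 genes (9 comparisons) was recomputed under each alternative. With a pseudocount of 0.25 and with a mean of at least 5 CPM all 90 kept their direction and their side of the threshold, and without a filter 89 did. With only the compared lines 84 did, with the replicate block 81, edgeR 77, without both SUDHL6 replicate 3 libraries 77, median-of-ratios scaling 75 and DESeq2 73. Leaving out 1 library at a time kept 1550 of 1620. The causes of the changes below were not tested.

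Values whose sign turned were not called in the reported fit. For the response in SUDHL6, median-of-ratios scaling, edgeR and DESeq2 gave 0.016, 0.023 and 0.009 for NFKB2, 0.013, 0.034 and 0.018 for RELB, 0.052, 0.057 and 0.044 for NFKBIA and 0.156, 0.180 and 0.171 for NFKBIE. In the same order they gave 0.094, 0.081 and 0.095 for REL in Farage, 0.005, 0.018 and 0.006 for REL in SUDHL4, 0.171, 0.191 and 0.179 for NFKBIE in SUDHL4, and -0.015, -0.011 and -0.008 for NFKBIE in SUDHL6 minus SUDHL4. For RELA in SUDHL6 minus Farage, scaling gave -0.007 and DESeq2 -0.016, and for TRAF1 in SUDHL4 minus Farage scaling gave 0.008. Without both SUDHL6 replicate 3 libraries, NFKB1 and NFKBIE in SUDHL6 were -0.109 and 0.010, and IKBKE at baseline in SUDHL6 minus SUDHL4 was -0.014 (edgeR -0.012). With 1 library left out, the ranges of values that turned were -0.252 to 0.243 for NFKB1 and -0.125 to 0.054 for NFKBIE in SUDHL6, and -0.017 to 0.049 for NFKB1 in Farage. At baseline they were -0.127 to 0.017 for IKBKE in Farage minus SUDHL4, -0.555 to 0.031 for REL and -0.014 to 0.206 for IKBKE in SUDHL6 minus SUDHL4. For response differences they were -0.275 to 0.220 for NFKB1, -0.000 to 0.123 for RELA and -0.367 to 0.116 for TRAF1 in SUDHL6 minus Farage, and -0.132 to 0.071 and -0.339 to 0.144 for TRAF1 in SUDHL4 minus Farage and SUDHL6 minus SUDHL4.

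Counts of calls moved as follows. The 4 falls and 3 rises in SUDHL4 became 2 falls and 4 rises with median-of-ratios scaling, edgeR and DESeq2, RELB being the added rise. For SUDHL6 minus Farage, 5 above became 3 with only the compared lines, and 0 below became 2 with DESeq2 and 1 with the replicate block or without both replicate 3 libraries. For SUDHL4 minus Farage, 1 below became 2 with only the compared lines, with the block and without those libraries. For SUDHL6 minus SUDHL4, 1 below became 3 with scaling, 2 with edgeR and 4 with DESeq2. The replicate block gave 3 above and 3 below there, and leaving out both replicate 3 libraries 2 and 3. With 1 library left out, falls in SUDHL6 ranged from 3 to 5 and rises in SUDHL4 from 1 to 3. SUDHL6 minus Farage ranged from 3 to 5 above and 0 to 1 below, SUDHL4 minus Farage from 0 to 2 below, and SUDHL6 minus SUDHL4 from 1 to 3 above and 1 to 3 below. The block changed no call of a member beyond those given with its genes, except in SUDHL4, where its numbers do not pair the libraries and REL was called lower (-0.302, adjusted p = 0.0036), as was NFKB1 in SUDHL4 minus Farage (adjusted p = 0.00292). Depth limits TRAF1 in treated SUDHL6, which rests on 14, 48 and 9 reads, the last in the shallow replicate 3, where 3 reads are 0.362 CPM.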
